A study of Mus musculus with 8 samples.

Results

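The core circadian clock genes were followed in the medial prefrontal cortex of mice shortly after contextual fear conditioning. The set was fixed by name: Per1, Per2, Per3, Cry1, Cry2, Arntl (the older symbol of Bmal1), Clock, Npas2, Nr1d1 and Dbp. All 10 were found among the 22609 gene rows of the deposited table, and all 10 passed the filter on low values, a mean value of at least 1.

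The conditioned group held 4 B6.SJL mice, 3 months old, which explored a chamber, received 2 foot shocks of 0.8 mA lasting 2 s each, and were killed 1 h later. The context control group held 4 mice of the same strain and age that were handled in the same way and saw the same chamber without a shock. Total RNA came from the anterior cingulate part of the cortex of both hemispheres. No transgene or drug is labelled, and no source used here gives the clock time of training or dissection. The submitters name the 8 samples biological replicates, and the p-values below measure the spread between them.

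The mammalian clock is a transcriptional feedback loop. The transcription factor ARNTL pairs with CLOCK, or in the forebrain also with NPAS2, and switches on genes through E-box elements. Among those targets are the Per and Cry genes, whose products return to the nucleus and repress the pair. Nr1d1 (REV-ERB alpha) is another target and in turn represses Arntl through ROR elements, while Dbp is an output factor that acts on D-box elements. In the brain outside the master clock of the hypothalamus, Per1 is also known to respond quickly to neuronal activity and to glucocorticoid hormones, so it sits between the clock and the response to a stressful event.

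To show the elements through which the loop is known to act, start-site windows from RefSeq (GRCm38.p6) were searched for these members. Such windows, 250 bases before to 50 bases after a start site, were held for 9 of the 10 genes, with 13 windows in all, and Per2 was not among them. The letters searched on both strands were CACGTG (E-box, found in 7.15% of all 32851 windows of the table), CACGTT (a variant E-box, 4.68%), TTATGNAA (D-box, 3.38%), TAGGTCA (ROR element, 2.61%), TGACGTCA (cyclic AMP element, 1.79%), its shorter form TGACG (20.8%) and the palindromic glucocorticoid response element (0.475%). None of these motifs overlapped another in the windows printed. The windows of Per1 and Nr1d1 are printed because these genes varied most and moved together, that of Clock because it moved in the opposite direction, and that of Arntl because it holds the ROR element. Capitals mark the matches other than TGACG, and each run is 5′ to 3′ on the gene's strand.
Per1 (chr11:69098699-69098998, plus strand, E-box and D-box): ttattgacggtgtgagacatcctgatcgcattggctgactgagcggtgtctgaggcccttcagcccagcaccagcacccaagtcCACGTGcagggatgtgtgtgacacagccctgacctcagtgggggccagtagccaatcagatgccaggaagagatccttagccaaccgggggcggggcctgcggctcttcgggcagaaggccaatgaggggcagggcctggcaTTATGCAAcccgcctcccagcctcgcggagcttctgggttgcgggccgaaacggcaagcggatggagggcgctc
Nr1d1 (chr11:98775328-98775627, minus strand, variant E-box): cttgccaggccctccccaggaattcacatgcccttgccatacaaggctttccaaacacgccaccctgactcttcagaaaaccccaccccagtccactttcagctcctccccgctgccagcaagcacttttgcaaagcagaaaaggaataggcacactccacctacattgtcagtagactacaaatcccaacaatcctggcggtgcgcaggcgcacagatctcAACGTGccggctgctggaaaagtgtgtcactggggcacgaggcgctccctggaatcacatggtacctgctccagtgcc
Arntl (chr7:113207261-113207560, plus strand, ROR element): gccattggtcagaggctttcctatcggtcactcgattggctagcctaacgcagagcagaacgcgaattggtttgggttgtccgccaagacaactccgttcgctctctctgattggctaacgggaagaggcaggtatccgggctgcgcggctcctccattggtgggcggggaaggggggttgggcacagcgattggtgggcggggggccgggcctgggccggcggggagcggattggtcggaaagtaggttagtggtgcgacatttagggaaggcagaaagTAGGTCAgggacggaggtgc
Clock (chr5:76304743-76305042, minus strand, no match): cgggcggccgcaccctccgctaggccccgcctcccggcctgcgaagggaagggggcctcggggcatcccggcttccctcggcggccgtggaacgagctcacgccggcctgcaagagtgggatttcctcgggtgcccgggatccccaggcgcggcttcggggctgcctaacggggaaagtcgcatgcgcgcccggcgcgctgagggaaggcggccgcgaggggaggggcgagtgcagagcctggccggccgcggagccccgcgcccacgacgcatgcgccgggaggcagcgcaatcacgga
The Per1 window held its E-box 166 bases and its D-box 24 bases before the start. The Nr1d1 window held the variant E-box 28 bases before the start. Cry1 had an E-box 60 bases and a variant E-box 79 bases before its start, Cry2 a variant E-box at 166 bases, and Per3 a D-box at 205 and another at 158 bases before the start. The short form TGACG stood 246 bases before the start in the Per1 window printed, 132 bases before it in the other Per1 window, 8 bases before it in Cry1 and 209 bases before it in Cry2. The windows of Dbp and Npas2, the other Arntl window and the other Clock windows held none of the letters searched. A match is a description of the sequence and not evidence of binding.

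Each value is a number of reads on a gene divided by 1 factor for its library, called a scaled read count here. The libraries held between 1992452 and 3565356 recovered gene reads, with no difference in depth detected between the groups (p = 0.857 by a two-sided exact permutation test). A clock gene was read from as few as 44 reads (Dbp in conditioned replicate 4, a counting error of 15.1%) to as many as 735 reads (Cry2 in control replicate 1, 3.69%). Markers of cortical neurons summed to 5938 to 7010 in conditioned samples and 5572 to 6904 in controls, with all 6 found. In the same order, striatal markers summed to 503 to 665 and 442 to 779, and meningeal markers to 80.6 to 296 and 173 to 519. Choroid plexus markers summed to 19.3 to 58.4 in conditioned samples and 23.3 to 70.6 in controls. The defining markers of the suprachiasmatic nucleus other than Vip, which cortical interneurons also express, were at or near 0 (Avp, Nms, Prok2 and Six6 had at most 11.1 in any sample). Vascular markers, 5 of 5 found, summed to 504 to 697 in conditioned samples and 740.0 to 923 in controls without overlap. Each of these 5 genes overlapped between the groups on its own, and 1.92% of all tested genes did not. Astrocyte markers, 5 of 5, summed to 4144 to 5209 and 5192 to 7318 in the same order. Gja1 alone among them did not overlap, at 909 to 1067 in conditioned samples and 1085 to 1433 in controls. Microglial markers summed to 916 to 1077 and 1066 to 1309 in the same order, and oligodendrocyte markers to 2161 to 3575 and 1944 to 6943. Clock genes are expressed in these cell types too, and the part of cell makeup in the results below was not tested. In bulk tissue, fewer cells of a type and less RNA per cell cannot be told apart.

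**Figure D1:**
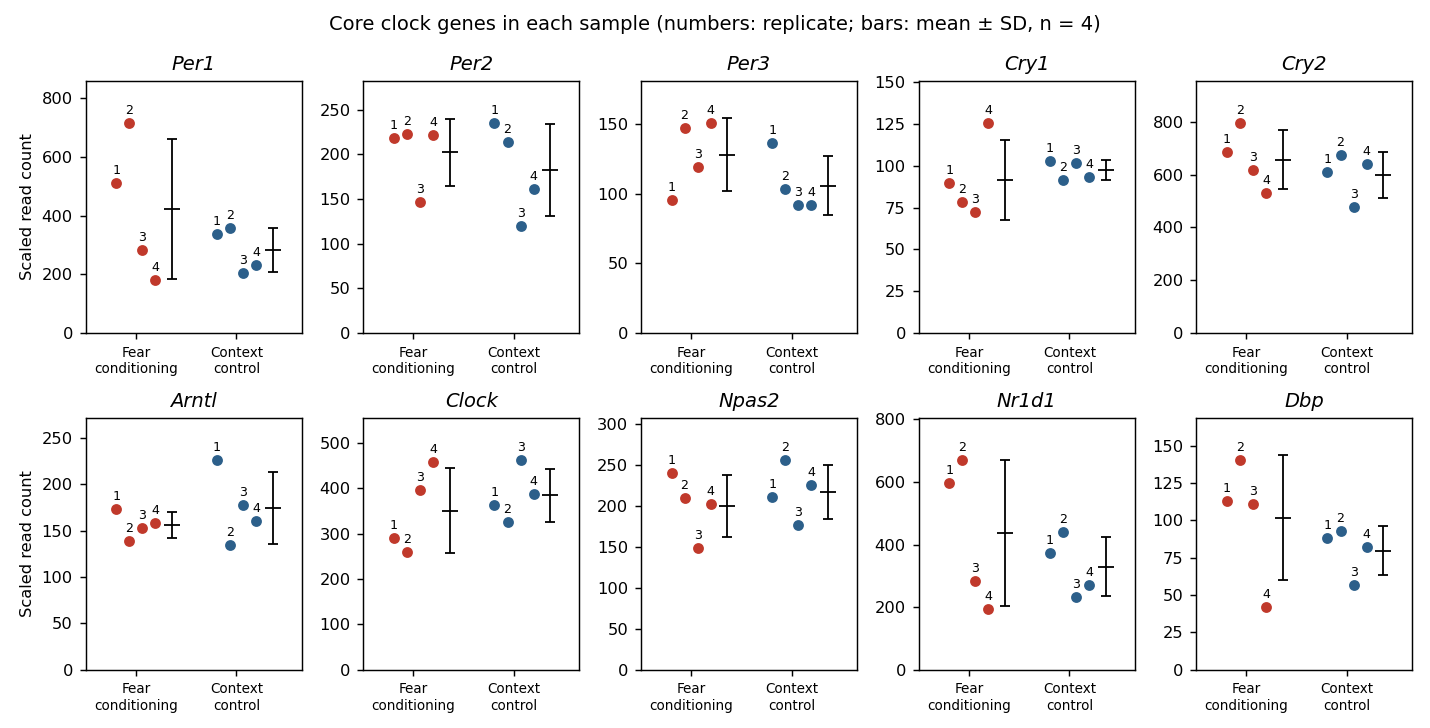
Scaled read counts (y axis, from 0) of the 10 core clock genes in the 4 fear conditioning samples (red) and the 4 context control samples (blue), with replicate numbers above the points and bars for the mean ± SD. The groups overlap for every gene, and Per1 and Nr1d1 have the widest spread within the conditioned group.

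No clock gene passed the test between conditioned and control cortex. Per1, Per2, Per3, Cry2, Nr1d1 and Dbp had positive log2 changes and Arntl, Clock, Npas2 and Cry1 negative ones. That is 6 of 10 above 0, where 51.8% of all 14704 tested genes lay above 0. The median log2 change of the 10 was 0.15, against 0.01 over all tested genes. Among the 6532 tested genes averaging 100 or more, a level closer to that of the members, 3951 lay above 0 and the median was 0.04. In size alone, the median change was 0.17 both for the 10 and over all tested genes, and 0.10 over those averaging 100 or more. Across the whole table limma also called 0 genes (0% of 14704), with 397 (2.7%) at an unadjusted p under 0.05, and none of the 10 was among these. edgeR and DESeq2 on the recovered reads called 0 genes as well, with 385 (2.62%) and 340 (2.31%) at an unadjusted p under 0.05. The conditioned and control values of each clock gene overlapped, while 1.92% of all genes separated the groups. The limma adjusted p was 0.9998 for each of the 10. Over all genes the 95% interval of a log2 change had a median reach of 0.62 to either side. It was 0.41 over genes averaging 100 or more and 0.47 over the 10.

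Per1 showed the largest log2 change of the set. It had 512, 715, 281 and 180.4 scaled reads in conditioned replicates 1 to 4, against 336, 357, 205 and 232 in control replicates 1 to 4. Conditioned replicates 1 and 2 stood above every control, replicate 3 lay inside the control range, and replicate 4 was the lowest of all 8 samples. The means were 422 ± 239.5 after conditioning and 282 ± 75.3 in controls (SD, n = 4 each). The log2 change was 0.43 with a standard error of 0.36 and a 95% interval of -0.35 to 1.21 (limma adjusted p = 0.9998). Without conditioned replicate 4 it was 0.77, and without conditioned replicate 2 it was 0.11.

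The other period genes varied less. Per2, whose product is a repressor like PER1, had 218, 223, 146 and 222 scaled reads in conditioned replicates, against 235, 214, 120.0 and 161 in controls. Replicate 3 was the lowest in either group. Its means were 202 ± 37.4 and 182 ± 51.9 in the same order, with a log2 change of 0.17 (95% interval -0.33 to 0.68). Without control replicate 3 the change was -0.01. Per3, a period gene that is known to be less essential for rhythm in mice, had 95.3, 147, 119 and 151 in conditioned samples and 136, 103, 91.8 and 91.7 in controls. Conditioned replicates 2 and 4 lay above every control and replicate 1 near the low end of both groups, and the 95% interval of its log2 change of 0.27 ran from -0.21 to 0.74.

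The cryptochromes, the main repressors of the ARNTL pair, stood at very different levels. Cry2 had 686, 796, 616 and 531 scaled reads in conditioned samples, against 610.4, 674, 476 and 641 in controls, with a log2 change of 0.13 (95% interval -0.23 to 0.49). That change was 0.02 without control replicate 3 and 0.22 without conditioned replicate 4. Cry1 had 89.8, 78.3, 72.4 and 126 in conditioned samples and 103, 91.3, 102 and 93.3 in controls. Conditioned replicates 1 to 3 lay below every control and replicate 4 above every control, so the mean hides a split group. The Cry1 change was -0.12 (95% interval -0.59 to 0.35), and it was -0.28 without conditioned replicate 4 and -0.02 without replicate 3.

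Of the activators, Arntl had 174, 139, 153 and 158 scaled reads in conditioned samples and 227, 134, 177 and 161 in controls. Only control replicate 1 stood apart, and without it the log2 change of -0.14 (95% interval -0.56 to 0.27) was -0.01. Clock, which encodes the partner of ARNTL, had 290.0, 259, 396 and 459 in conditioned samples, against 363, 325, 463 and 386 in controls. It ran nearly opposite to Per1 over the samples, with conditioned replicates 1 and 2 the lowest of all samples. The means were 351 ± 92.9 and 384 ± 58.1 (SD, n = 4 each), a log2 change of -0.16 (95% interval -0.59 to 0.27), which was -0.02 without conditioned replicate 2. Npas2, the forebrain partner that can replace CLOCK, had 240.3, 209.6, 149 and 202 in conditioned samples and 211, 257, 176 and 225 in controls, a change of -0.13 (95% interval -0.54 to 0.29). Without conditioned replicate 3 it was 0.01.

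Nr1d1 had 597, 671, 284 and 193 scaled reads in conditioned samples, against 374, 439, 231 and 272 in controls. As for Per1, conditioned replicates 1 and 2 were above every control and replicate 4 was below every control. The means were 436 ± 233 and 329 ± 94.9 (SD, n = 4 each), with a log2 change of 0.27 (95% interval -0.50 to 1.04). It was 0.60 without conditioned replicate 4, 0.06 without replicate 1 and 0.01 without replicate 2. Dbp had 113, 141, 111 and 42.2 in conditioned samples and 88.0, 92.7, 56.5 and 82.1 in controls. Here conditioned replicates 1 to 3 exceeded every control and replicate 4 lay below every control. The change was 0.24 (95% interval -0.50 to 0.98) with all samples, 0.62 without conditioned replicate 4 and 0.05 without conditioned replicate 2. Parts of the exons of Nr1d1 (8.55% of bases) and Dbp (18%) lie opposite exons of Thra and Sphk2 in GENCODE vM21, and 4.67% of Cry2 exon bases lie opposite the noncoding gene D930015M05Rik. Whether counting used strand is not given in the sources used here, and reads of either gene in these stretches cannot be told apart.

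**Figure D2:**
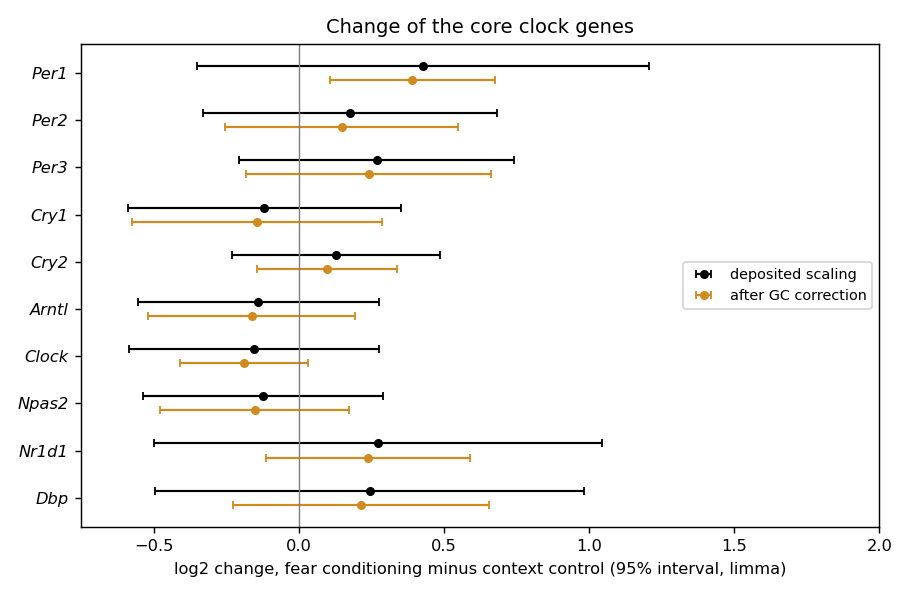
Log2 change of each core clock gene, fear conditioning minus context control (x axis), with 95% intervals from limma, on the deposited scaling (black) and after GC correction (orange). All 10 intervals cross 0 on the deposited scaling, and after GC correction the interval of Per1, 0.11 to 0.67, does not.

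The genes could be ordered by level per kilobase of their longest GENCODE vM21 transcript, as scaled reads per kb over the 8 samples. Cry2 stood at 158 and Nr1d1 at 141, followed by Per1 at 75.4, Arntl at 55.6, Dbp at 49.4 and Npas2 at 49.3. Clock (37.7), Per2 (33.0), Cry1 (31.2) and Per3 (19.5) closed the order. The ranges over samples of each neighbouring pair in this order overlapped. Within samples, Nr1d1 exceeded Per1 in 8 of 8 and Cry1 exceeded Per3 in 8 of 8, whereas Per1 exceeded Arntl in 4 of 8 and Arntl exceeded Dbp in 4 of 8. The length of the transcript form present in cortex is not known from gene counts, so the order depends on the form chosen.

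The clock genes varied to different degrees between samples. The highest sample exceeded the lowest 3.96-fold for Per1, 3.48-fold for Nr1d1 and 3.33-fold for Dbp, and between 1.64-fold and 1.96-fold for the other 7. Within the conditioned group the coefficient of variation was 56.7% for Per1, 53.5% for Nr1d1 and 41.2% for Dbp, against 26.7%, 28.8% and 20.2% in controls. Cry1 had 26.1% in conditioned samples and 6.05% in controls. Arntl and Per2 went the other way, Arntl with 9.19% in conditioned samples and 22.2% in controls and Per2 with 18.5% in conditioned samples and 28.5% in controls. These spreads were not tested against each other.

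Part of the set moved together across samples. Over all 8 samples, Per1 and Nr1d1 had a Pearson r of 0.98 and ranked the samples identically (Spearman rho of 1). The exact permutation p was 2.48e-05 for r, the smallest that 40320 pairings can give, and 4.96e-05 for rho. This test treats the 8 samples as exchangeable. Across the groups, however, replicates 1 and 2 deviated together from their group means, and so did replicates 3 and 4. No version within replicate numbers was run, so the p-values of the pairs may be too small. Clock ran opposite to both, with r = -0.98 against Per1 (exact permutation p = 9.92e-05, rho = -0.95 with p = 0.00114) and r = -0.98 against Nr1d1 (exact permutation p = 9.92e-05, rho = -0.95 with p = 0.00114). Leaving out the 2 samples farthest from the median of the first gene, r was 0.98, -0.95 and -0.96 for these 3 pairs. Of 45 pairs, 11 passed at an adjusted exact permutation p under 0.05 for r and 10 for rho, all among Per1, Nr1d1, Dbp, Cry2, Clock and, with Dbp, Cry1. With the group means removed, 11 pairs passed as well. Arntl, Per2, Per3 and Npas2 were in no such pair. Arntl and Clock, whose products form the activator pair, had r = 0.28 (exact permutation p = 0.508, rho = 0.33 with p = 0.428), and Arntl and Nr1d1 had r = -0.18 (exact permutation p = 0.689, rho = -0.31 with p = 0.462).

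**Figure D3:**
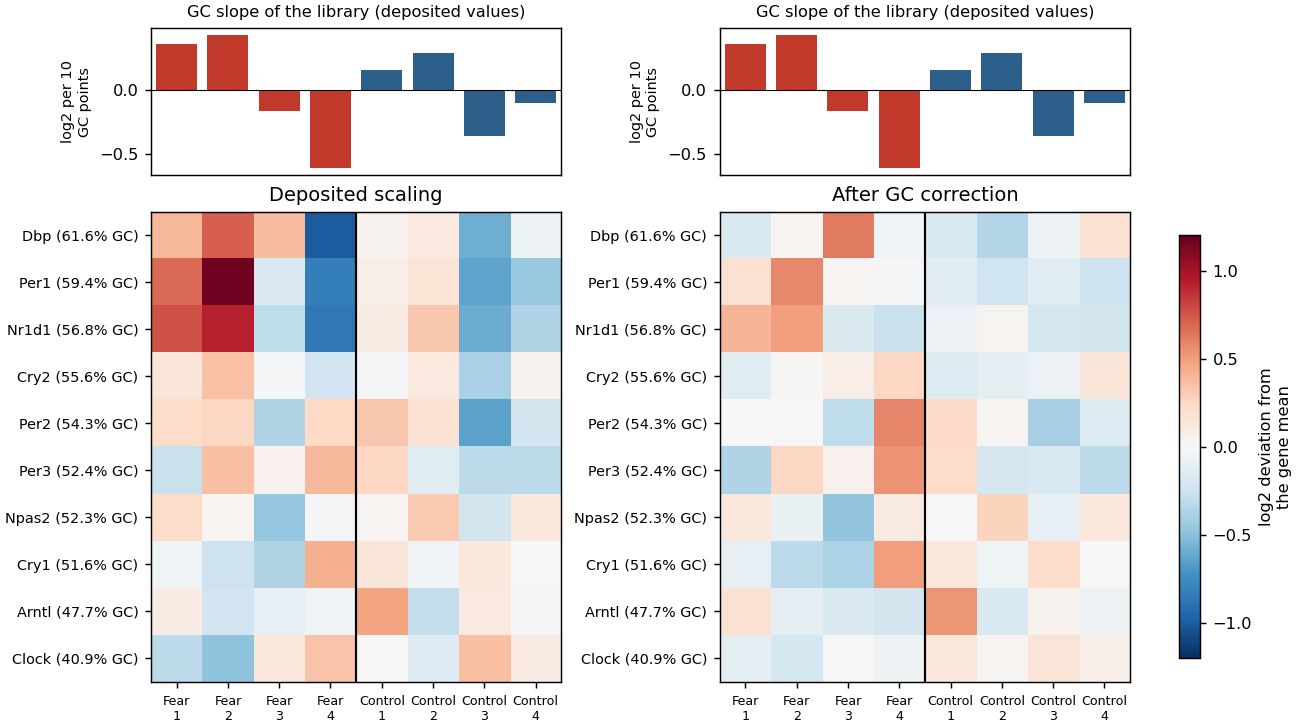
Log2 deviation of each core clock gene from its own mean over the 8 samples (colour), on the deposited scaling (left) and after GC correction (right), with genes ordered from high to low transcript GC content and the GC slope of each library as bars above. On the left, Per1, Nr1d1 and, but for conditioned replicate 3, Dbp follow the bars and Clock runs against them, with slopes from -0.61 to 0.43. On the right the contrast between these genes is weaker.

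This shared pattern ran along a property of the libraries. In each library the deviation of genes from their mean was set against the GC content of their transcripts, over 6480 genes averaging 100 or more. The slope, in log2 units per 10 percentage points of GC, was 0.36, 0.43, -0.17 and -0.61 in conditioned replicates 1 to 4 and 0.15, 0.29, -0.36 and -0.10 in control replicates 1 to 4. It was positive in replicates 1 and 2 and negative in replicates 3 and 4 of both groups. The group means were 0.0038 ± 0.49 in conditioned samples and -0.0038 ± 0.29 in controls (SD, n = 4 each, exact permutation p = 0.971). The first principal component of these genes carried 64.3% of the variance and had an r of 0.998 in size with the slope.

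The 4 members of highest GC content, Dbp (61.6%), Per1 (59.4%), Nr1d1 (56.8%) and Cry2 (55.6%), ran with this slope, and Clock, the lowest at 40.9%, ran against it. Per2 (54.3%), Per3 (52.4%), Npas2 (52.3%) and Cry1 (51.6%) also lay above the median of 50.1% over tested genes, and Arntl (47.7%) below it. None of these 5 had a relation that passed. The r with the GC slope over the 8 samples was 0.97 for Nr1d1 (exact permutation p = 0.000298, adjusted p = 0.00236 over the 10 relations, rho = 0.98 with p = 0.000397). It was 0.92 for Per1 (exact permutation p = 0.00124, adjusted p = 0.00413, rho = 0.98 with p = 0.000397) and -0.94 for Clock (exact permutation p = 0.000471, adjusted p = 0.00236, rho = -0.98 with p = 0.000397). Without the 2 libraries farthest from the median slope these were 0.96, 0.93 and -0.97. Cry2 had r = 0.86 (exact permutation p = 0.00461, adjusted p = 0.00923, rho = 0.90 with p = 0.00456) and 0.82 without those libraries. Dbp had r = 0.87 (exact permutation p = 0.00362, adjusted p = 0.00905, rho = 0.86 with p = 0.0107), which was 0.65 without them and so leaned on those 2 libraries. Per2 had r = 0.49 (exact permutation p = 0.218, rho = 0.45 with p = 0.267), Npas2 r = 0.54 (exact permutation p = 0.171, rho = 0.62 with p = 0.115) and Cry1 r = -0.57 (exact permutation p = 0.14, rho = -0.55 with p = 0.171). Arntl had r = -0.12 (exact permutation p = 0.782, rho = -0.26 with p = 0.536) and Per3 r = -0.06 (exact permutation p = 0.881, rho of 0 with p = 1). Over all 6480 genes, 22.3% had an r with the slope of at least 0.9 in size, so the clock genes shared this pattern with many others. Of 6531 other genes, 432 (6.61%) had an r of at least 0.9 with Per1 and 736 (11.3%) with Nr1d1.

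**Figure D4:**
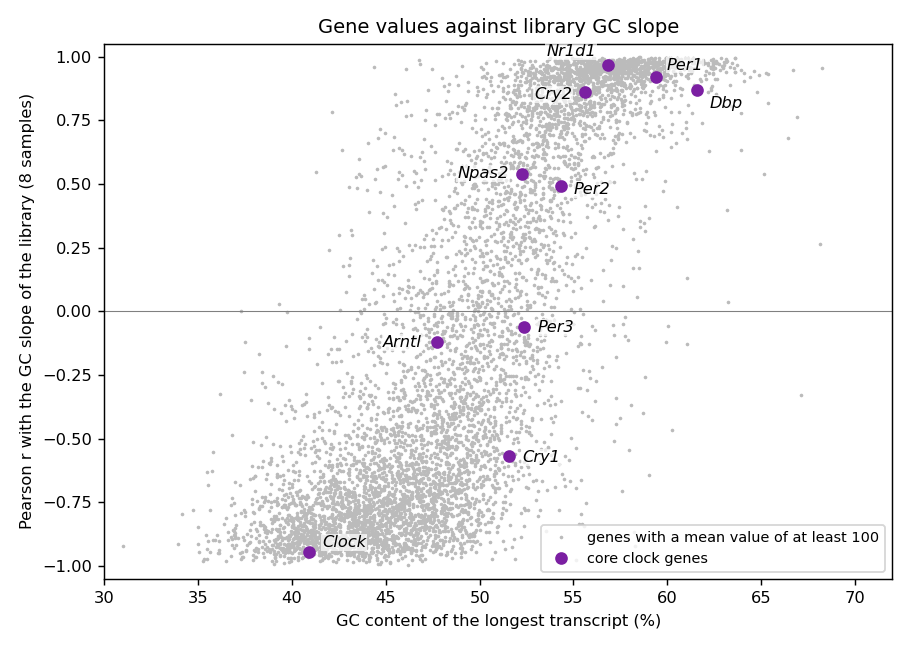
Pearson r of each gene with the GC slope of the libraries over 8 samples (y axis) against the GC content of its longest transcript in percent (x axis), for genes averaging 100 or more (grey) and the core clock genes (purple). Nr1d1, Per1, Dbp and Cry2 lie at the GC-rich upper end and Clock at the GC-poor lower end, within the cloud of all genes.

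The genes whose pattern was most like that of a clock gene were, by Pearson r over 8 samples, Pcnxl2 (0.98), Phb2 (0.98) and Nr1d1 (0.98) for Per1. For Dbp they were Idh3b (0.99), Grpel1 (0.98) and Nol6 (0.98), and for Arntl they were Sf3a3 (0.87), Fbxo18 (0.83) and Odc1 (0.83). No gene among 6531 reached 0.9 with Arntl or with Per3.

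After the GC trend of each library was subtracted, the groups no longer overlapped for Per1 and for Clock. This correction was chosen after the data had been seen. On the corrected log2 scale Per1 stood at 8.50, 8.88, 8.34 and 8.30 in conditioned replicates, against 8.17, 8.07, 8.16 and 8.06 in controls. Every conditioned sample was thus above every control, as for 215 of 14704 genes (1.46%) in that direction. The pooled SD within groups was 0.19 after correction and 0.68 before it. The log2 change was 0.39 (95% interval 0.11 to 0.67), and Per1 did not pass over all genes (limma adjusted p = 0.874). Leaving out each sample in turn gave changes of 0.26 to 0.46, lowest without conditioned replicate 2, with limma adjusted p of 0.595 or more.

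Clock stood at 8.39, 8.28, 8.49 and 8.43 in conditioned replicates on the corrected scale and at 8.62, 8.52, 8.65 and 8.56 in controls. Every conditioned sample was below every control, as for 275 of 14704 genes (1.87%) in that direction. Its pooled SD was 0.08 after correction and 0.31 before it. The change was -0.19 (95% interval -0.41 to 0.03, limma adjusted p = 0.901). Leaving out each sample in turn gave -0.22 to -0.15. In same-numbered pairs, Per1 was higher in the conditioned sample in 4 of 4 after correction and 3 of 4 before it, and Clock in 0 of 4 after and 1 of 4 before. Cry2, whose groups overlapped, was also higher in 4 of 4 pairs after correction. For Per1 and Clock the counts after correction follow from groups that do not overlap. How often genes of the whole table reach such counts was not computed.

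The other members kept overlapping groups after correction. Nr1d1 had a corrected log2 change of 0.24 (95% interval -0.12 to 0.59) and Dbp of 0.21 (95% interval -0.23 to 0.65). They were 0.11 for Nr1d1 without conditioned replicate 2 and 0.04 for Dbp without conditioned replicate 3. The corrected change was 0.15 for Per2, 0.24 for Per3, 0.10 for Cry2, -0.15 for Cry1, -0.16 for Arntl and -0.15 for Npas2. Each of these 6 also moved by over 1.5 times when 1 sample was left out, and Per2 was -0.02 without conditioned replicate 4. With all samples, the 10 changes kept their sign. GC correction also called 0 genes over the whole table, with 824 (5.6%) at an unadjusted p under 0.05.

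Co-variation within the set was weaker after correction. No pair passed at an adjusted exact permutation p under 0.05, against 11 before. Per1 still ran opposite to Clock (r = -0.87, exact permutation p = 0.00454, adjusted p = 0.204, and r = -0.67 with the group means removed) and with Nr1d1 (r = 0.79, exact permutation p = 0.0247, adjusted p = 0.37), and the r of Per1 with Dbp was 0.13 and with Cry2 0.01. Nr1d1 and Clock had r = -0.75 (exact permutation p = 0.0355, adjusted p = 0.40). Only 2 pairs had an r of at least 0.8 in size, Per1 with Clock and Npas2 with Dbp, the second at -0.84 after correction and 0.12 before it. The corrected values of Nr1d1 still ran with the GC slope of the libraries (r = 0.84 over 8 samples). Those of Cry2, which ran with the slope before correction, had r = -0.68, and those of Cry1 had r = -0.65. Per1 had r = 0.42 and Clock r = -0.41, and the remaining members lay between -0.35 and 0.30. These r after correction were not tested.

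**Figure D5:**
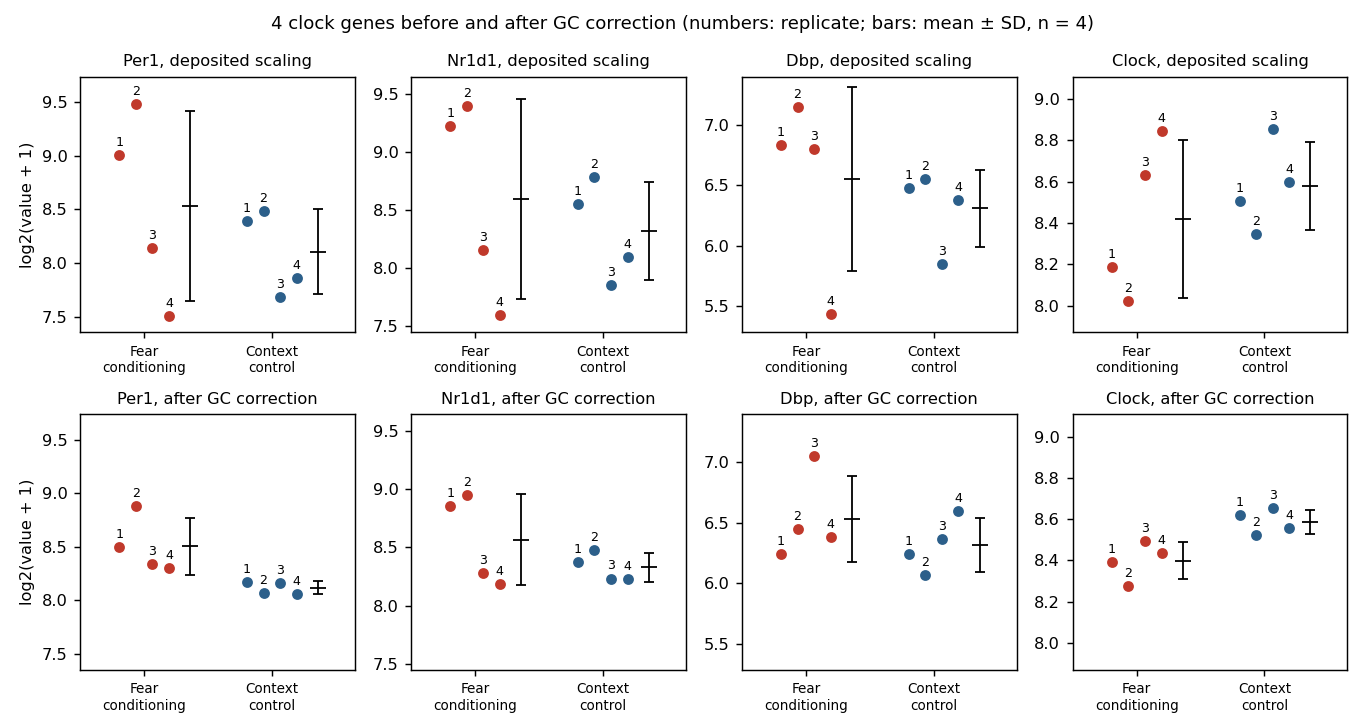
Log2(value + 1) of Per1, Nr1d1, Dbp and Clock in the fear conditioning (red) and context control (blue) samples on the deposited scaling (top) and after GC correction (bottom), with replicate numbers and mean ± SD. After correction every conditioned sample lies above every control for Per1 and below every control for Clock.

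Other genes of the clock pathway gave no call. Of 30 tested, among them the kinases that phosphorylate PER proteins, the ubiquitin ligase subunits that mark PER and CRY for degradation and the ROR receptors, 0 passed in either direction. Changes were positive for 17 and negative for 13, with a median log2 change of 0.02. The smallest p was that of Usp2, a clock-controlled deubiquitinase, at 375 ± 103 scaled reads in conditioned samples and 298 ± 37.5 in controls (SD, n = 4 each, log2 change 0.30, and 0.13 without conditioned replicate 2). Rorb, a ROR receptor gene, stood at 154 ± 44.1 and 186 ± 20.6 (log2 change -0.30, between -0.47 without conditioned replicate 4 and -0.20 without replicate 1), and Tef, a relative of Dbp, at 1631 ± 123 and 1479.8 ± 118 (0.14), in the same order. Bhlhe41, a repressor that competes at E-boxes, was the only one of the 30 whose groups did not overlap, against 1.92% of all tested genes. It had 40.0, 43.8, 43.7 and 47.0 in conditioned samples, against 36.5, 37.6, 39.3 and 24.1 in controls, a log2 change of 0.36 (95% interval -0.22 to 0.93), which was 0.20 without control replicate 4.

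Per1 is also an activity-induced and a glucocorticoid-responsive gene, and genes of both kinds were read beside it. Fos had 338, 464, 319.7 and 215 scaled reads in conditioned samples and 224, 234, 338 and 243 in controls, and Arc 982, 1013, 419 and 273 against 774, 650.0, 837 and 525. As for Per1, conditioned replicate 2 was the highest and replicate 4 the lowest conditioned sample for both. Junb, Nr4a1 and Egr1 had the same extremes, and Sgk1, Fkbp5 and Tsc22d3 did not. Conditioned replicate 2 also had the highest GC slope of the libraries (0.43) and replicate 4 the lowest (-0.61). The part of the GC trend in this order was not tested. GC-corrected log2 changes were 0.30 for Fos, 0.46 for Junb, -0.14 for Nr4a1, -0.27 for Arc and -0.06 for Egr1. For the glucocorticoid-responsive genes they were 0.27 for Sgk1, 0.09 for Fkbp5 and 0.07 for Tsc22d3. The direction of Nr4a1, Arc and Egr1 turned under other settings without the correction, array weights among them. None of these 8 genes passed the limma test with or without the correction.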

How the data were processed

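Gene expression was measured by RNA sequencing of 8 samples, grouped by their titles. The authors' deposited table is named FPKM, but its values form a scaled signal that is not length corrected: in each column 100% of values above 0 were whole multiples of a step within 0.01 of a read, so read counts divided by a factor per sample were deposited by the authors. How the factor was set is not given in the sources used here. TopHat and HTSeq are named without versions, and hg19, a human build, per the submitters' processing notes. No library was a copy of another, with a chi-square per degree of freedom of recovered reads of 2.24 to 23.6 over all pairs.

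Values were transformed to log2(value + 1), which understates changes of low genes. The 14704 genes averaging 1 or more were tested in limma 3.58.1 under R 4.3.3 (variance trend, two-sided, Benjamini-Hochberg over all genes, threshold 0.05), a test tried on simulated data. Alternatives on recovered reads used edgeR 4.0.16 and DESeq2 1.42.0. Same-numbered samples deviated together from their group means (r = 0.56, 0.60, 0.32 and 0.19 for numbers 1 to 4). Some samples of different number did so more closely, such as conditioned replicate 1 with control replicate 2 (r = 0.73) and conditioned replicate 4 with control replicate 3 (r = 0.80). The labels state no pairing, and the main fit and the permutation tests treated the samples as unpaired. A fit with the replicate number as a block is an alternative. Transcript GC content and length came from the longest GENCODE vM21 transcript, preferring protein-coding forms, for 98.8% of tested genes. GC correction subtracted a lowess curve (span 0.3, from genes whose log2 values averaged over 5) per library. Correlations over samples used exact permutation of all pairings, adjusted over 45 pairs. The members, lists and tests were chosen with earlier results of these data known. Named genes were the 10 members, the 4 other pathway genes with the smallest p, 8 activity or glucocorticoid genes beside Per1, and the 3 nearest genes by pattern for Per1, Dbp and Arntl, passing over unnamed loci.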

Additional observations from a re-analysis of the deposited data

Results flagged for a closer look

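In a group of 4, a sample was marked when its gap to the nearest other sample took up nearly the whole range of the group. Of 44 groups examined, 3 held such a sample, and chance marks about 1 in 20. Per2 had 146 scaled reads in conditioned replicate 3, against 218 to 223 in the other conditioned samples. Fos had 338 in control replicate 3, against 224 to 243 in the other controls. Sgk1 had 471 in control replicate 3, against 199.6 to 228 in the other controls.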

How the results depend on the processing

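The log2 change of the 10 clock genes kept its sign in 188 of 190 alternative results, with 0 called. The exceptions were Per2 without control replicate 3 (-0.010) and Npas2 without conditioned replicate 3 (0.0097). The filters on low values and the replicate block leave the log2 change as it was, and every setting reuses the same samples. The count is therefore not independent support for a change. GC correction combined with leaving out a sample added 80 results, with 0 called and 1 turned, Per2 without conditioned replicate 4 (-0.025). Leaving out each sample gave log2 changes of 0.11 to 0.77 for Per1, -0.30 to -0.02 for Clock, -0.010 to 0.32 for Per2, -0.22 to 0.0097 for Npas2, 0.05 to 0.62 for Dbp, 0.01 to 0.60 for Nr1d1, -0.28 to -0.02 for Cry1, 0.02 to 0.22 for Cry2, 0.18 to 0.40 for Per3 and -0.26 to -0.01 for Arntl.

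Over the whole table the count of called genes was 2 without a filter on low values (Rnase6 and Stap2, named after their values were seen) and 0 to 1 when each sample was left out, the 1 being Uevld without conditioned replicate 4. With GC correction and a sample left out, limma called Coch without conditioned replicate 2 (adjusted p = 0.0359) and Uevld without conditioned replicate 4 (adjusted p = 0.00628). With all samples the count was 0 under edgeR, DESeq2, the other pseudocounts, a mean value of at least 10, quantile normalization, array weights and GC correction. With the replicate number as a block it was also 0, and the block changed no call of a clock gene (limma adjusted p = 0.997 for Per1). Conditioned replicates 1, 3 and 4 correlated best with controls of another number, at 0.73, 0.41 and 0.80.

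Beside Per1, the direction turned for Nr4a1 under edgeR (0.066), DESeq2 (0.069), array weights (0.16) and without conditioned replicates 3 (0.04) and 4 (0.23), with a range of -0.43 to 0.23 over the samples left out. It turned for Arc under array weights (0.056) and without conditioned replicate 4 (0.12, range -0.50 to 0.12). For Egr1 it turned under array weights (0.10), without conditioned replicates 3 (0.04) and 4 (0.10) and without control replicates 2 (0.0011) and 4 (0.0005), with a range of -0.16 to 0.10.

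The 11 clock gene pairs that passed became 0 after GC correction, chosen after the data had been seen, and 3 to 13 when each sample was left out, lowest without conditioned replicate 2. With 7 samples, fewer pairings are available. After GC correction the r of Cry2 with Nr1d1 was -0.46, that of Nr1d1 with Dbp -0.29 and that of Cry1 with Cry2, not among the 11, 0.25, all turned. What the GC slope of the libraries stems from was not tested. Depth limits Dbp most, with 44 reads in its lowest sample, and intervals over 4 mice a group leave changes of the size of these estimates unresolved.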
